A study of Mus musculus with 12 samples.

Results

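The 10 genes described here belong to the amino acid stress response and to serine and one-carbon synthesis. They were chosen by symbol, as genes driven by the transcription factor Atf4, with earlier results of these data known, and all 10 were found among the 55487 genes of the deposited gene count table. They are Atf4 itself, the stress-response genes Chac1, Trib3 and Asns, the serine and folate enzymes Phgdh, Psat1, Shmt2 and Mthfd2, and the amino acid transporters Slc7a5 and Slc7a11. All 10 passed the filter on low counts, which kept 19235 genes.

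The study profiled poly(A) RNA of female mouse embryonic stem (ES) cells, a hybrid of the C57BL6 and CAST strains, in 12 libraries of 4 groups with 3 libraries each. Wild-type (WT) cells and cells labelled SIRT7-KO, for the gene of the deacetylase Sirt7, were sampled at day 0 in the presence of LIF, the cytokine that holds mouse ES cells undifferentiated, and 7 days after LIF had been withdrawn. A further treatment label, LIF or none, does not follow the day. Of the 6 day 0 libraries 3 carry the label none, and of the 6 day 7 libraries 3 carry the label LIF. The groups here therefore rest on the day labels and the stated protocol. The label is uneven between the genotypes: most libraries labelled knockout carry LIF and most WT libraries carry none. Within a genotype each replicate number has the same label at both days, and the genotypes have opposite labels at each number. The label is thus partly mixed with genotype in the comparisons between genotypes. No transgene or other agent is named for any group. The labels do not say whether the replicates of a group came from separate cultures, how many clones the knockout stands for, or whether feeder cells were present, so p-values measure the spread between these libraries, which may be technical.

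The libraries held 25190483 to 69079368 counts. The knockout label was not borne out by the transcript of the targeted gene: Sirt7 stood at 12.7, 8.03 and 10.3 CPM (counts scaled to library size, per 1e6 counts) in WT at day 0 and at 19.2, 23.8 and 16.9 CPM in the libraries labelled knockout, and at 10.2, 10.6 and 15.3 CPM against 25.1, 20.1 and 23.8 CPM at day 7. The libraries labelled knockout were therefore higher at both days (log2 0.95 ± 0.21 SE, edgeR adjusted p = 0.182, and log2 0.94 ± 0.21, adjusted p = 0.299). By DESeq2 the Sirt7 difference passed at both days, beside 1.95% and 0.656% of the genes it tested. Where the deletion lies is not given in the sources used here, so this level cannot check the label, and an exchange of the genotype labels would reverse each difference between genotypes given here. The day labels fitted the cell type markers. The summed level of 8 ES cell markers, Nanog, Pou5f1 and Sox2 among them, was 6886 to 7236 CPM over the 6 day 0 libraries and 327 to 359 CPM over the 6 day 7 libraries. That of 8 markers of differentiated progeny was 20.6 to 22.8 CPM at day 0 and 3502 to 4765 CPM at day 7.

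When amino acids run short or the endoplasmic reticulum is stressed, kinases phosphorylate the translation factor eIF2 alpha, which lowers general protein synthesis while the mRNA of Atf4 is translated more. Atf4 protein, paired with a C/EBP family factor, then binds a composite element in its target genes and switches on amino acid synthesis, import and the feedback genes of the response. Because Atf4 is controlled largely at translation, its mRNA level is a poor guide to its protein. Mouse ES cells are known for an unusual dependence on threonine and on one-carbon metabolism, to which the serine pathway contributes.

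The promoter sequences of the members that carry this composite element are shown because these were the 4 members whose level changed most over the 7 days in both genotypes in the whole-genome table, a description with no test. In the genome-split sums described further on, Slc7a11 changed less than Psat1 and Shmt2. RefSeq promoter entries (assembly GRCm38.p6, 250 bases before to 50 after the start) were found for 9 of the 10 members, and were searched for TGATGNAA on both strands. Asns, Chac1, Trib3 and Slc7a11 held it, as against 3.97% of all 32851 promoters of the same 300 bases. The members were chosen as genes driven by Atf4, which binds this element, so the comparison with all promoters is not a test. Asns, Chac1 and Trib3 fell over the days while Slc7a11 rose. The matches are in capitals, in the orientation of the gene.
Asns promoter, chr6:7693160-7693459, minus strand: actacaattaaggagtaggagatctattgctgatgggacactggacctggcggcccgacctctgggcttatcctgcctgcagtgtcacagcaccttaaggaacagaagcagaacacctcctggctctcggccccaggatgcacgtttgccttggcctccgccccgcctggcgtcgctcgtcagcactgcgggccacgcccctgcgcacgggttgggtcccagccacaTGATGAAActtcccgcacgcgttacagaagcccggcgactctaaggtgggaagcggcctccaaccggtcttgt
Chac1 promoter, chr2:119350992-119351291, plus strand: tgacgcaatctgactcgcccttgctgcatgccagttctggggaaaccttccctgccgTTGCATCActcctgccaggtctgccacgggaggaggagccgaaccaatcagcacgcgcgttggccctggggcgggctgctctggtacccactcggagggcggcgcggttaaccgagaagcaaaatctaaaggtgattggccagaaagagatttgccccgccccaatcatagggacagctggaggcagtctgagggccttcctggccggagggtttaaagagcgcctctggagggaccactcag
Trib3 promoter, chr2:152344011-152344310, minus strand: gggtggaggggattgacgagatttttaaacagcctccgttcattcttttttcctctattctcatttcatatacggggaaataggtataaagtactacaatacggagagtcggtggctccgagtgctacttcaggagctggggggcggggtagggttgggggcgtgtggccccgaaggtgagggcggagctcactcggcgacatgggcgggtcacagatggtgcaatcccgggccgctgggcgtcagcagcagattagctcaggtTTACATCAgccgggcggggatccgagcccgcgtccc
Slc7a11 promoter, chr3:50443564-50443863, minus strand: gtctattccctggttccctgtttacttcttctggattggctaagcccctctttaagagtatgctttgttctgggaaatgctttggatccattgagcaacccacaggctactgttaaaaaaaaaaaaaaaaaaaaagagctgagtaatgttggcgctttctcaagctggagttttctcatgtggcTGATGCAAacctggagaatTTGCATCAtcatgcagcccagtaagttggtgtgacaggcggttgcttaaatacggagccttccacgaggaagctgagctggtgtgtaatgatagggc
Counting the start base as 1, the match lay at -23 to -16 in Asns (TGATGAAA), at -193 to -186 in Chac1 (TTGCATCA) and at 15 to 22 in Trib3 (TTACATCA). Slc7a11 held a pair of matches facing each other, TGATGCAA at -66 to -59 and TTGCATCA at -47 to -40, and more than 1 match was found in 0.07% of all promoters. The windows of Atf4, Phgdh, Psat1, Shmt2 and Mthfd2 held no match to these letters. No binding was measured in this series, so a match describes the sequence only.

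Over the 7 days most of the 10 genes fell. In WT cells 7 were lower and 1, Slc7a11, was higher at an edgeR adjusted p of at most 0.05, and Atf4 and Phgdh did not pass. In cells labelled knockout 8 were lower and 1, again Slc7a11, was higher, and only Atf4 did not pass. Differentiation moved much of the transcriptome, so these counts stand against a high background: 65.1% of the 19235 tested genes passed in WT (32.9% higher and 32.1% lower) and 63.4% in cells labelled knockout (31.1% higher and 32.3% lower). In WT all 3 libraries of day 7 lay below all 3 of day 0 for 7 of the 10 genes and above them for 2, beside 35.6% and 36.4% of tested genes. For the libraries labelled knockout they lay below for 8 and above for 1, beside 34.9% and 34.6%. The median log2 change of the 10 genes was -0.74 in WT and -1.16 in cells labelled knockout, beside 0.01 and -0.02 over all tested genes. The 2 time comparisons use different libraries. Each library holds RNA of a cell population, so fewer cells expressing a gene and less RNA per cell cannot be told apart.

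**Figure D1:**
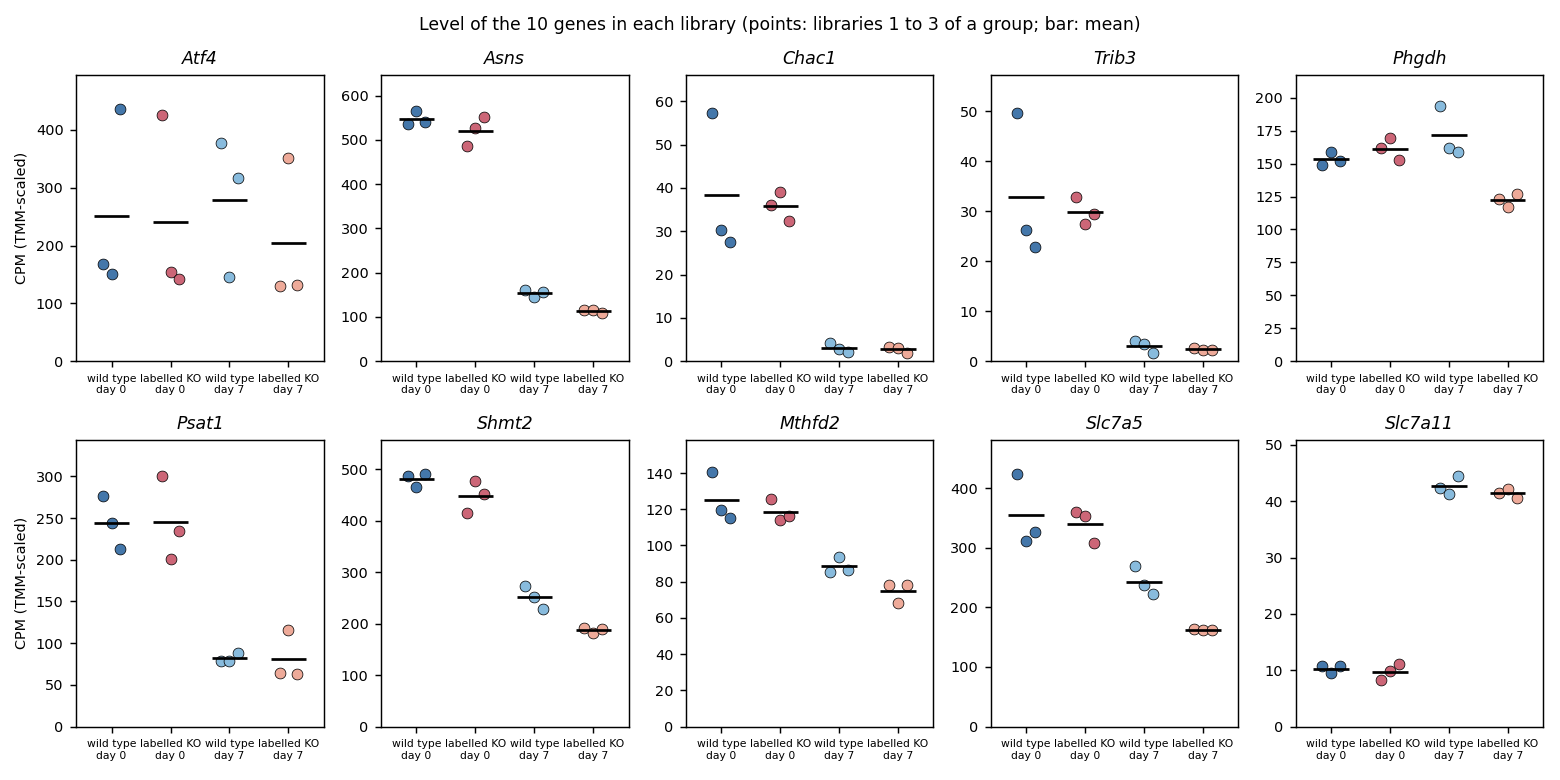
Level of each of the 10 genes in CPM (vertical axes, from 0) in the 4 groups; points are the 3 libraries of a group and the bar is their mean. The 7 genes called lower in WT are lower at day 7 than at day 0 with no overlap in either genotype, Slc7a11 is higher without overlap, Phgdh separates in opposite directions in the 2 genotypes, and the Atf4 points spread over overlapping ranges in the 4 groups.

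**Figure D2:**
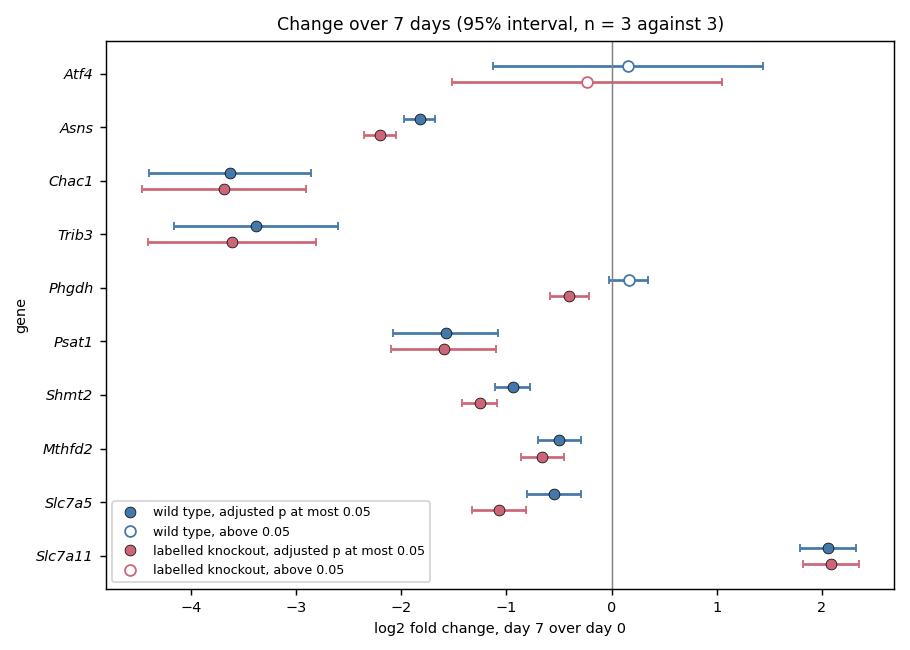
Log2 fold change from day 0 to day 7 (horizontal axis) for each gene in WT and in libraries labelled knockout, with 95% intervals of the edgeR fit; filled points have an adjusted p of at most 0.05. Chac1 and Trib3 lie furthest to the left, at -3.63 and -3.39 in WT, and the intervals of Atf4 cross 0 widely.

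Chac1 and Trib3 showed the deepest fall of the 10. Chac1 (chr2:119351229-119354381, GRCm38) encodes an enzyme that breaks down glutathione and is a familiar readout of Atf4 activity. It was counted at 57.4, 30.3 and 27.4 CPM in the 3 WT libraries of day 0 and at 4.14, 2.94 and 2.13 CPM at day 7. In libraries labelled knockout it was at 36.1, 39.1 and 32.4 CPM at day 0 and at 3.40, 3.07 and 1.84 CPM at day 7. Every day 7 library was thus below every day 0 library, and the first WT library of day 0 was far above the other two. The fall was 12.4-fold in WT (log2 -3.63 ± 0.35 SE, edgeR adjusted p = 3.82e-06) and 12.9-fold in cells labelled knockout (log2 -3.69 ± 0.35, adjusted p = 3.72e-06). The day 7 values rest on 55 to 198 reads per library.

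Trib3 (chr2:152337422-152344032) encodes a pseudokinase that feeds back on Atf4. It stood at 49.7, 26.2 and 22.9 CPM in WT at day 0 and at 4.14, 3.50 and 1.66 CPM at day 7. The libraries labelled knockout went from 32.8, 27.5 and 29.4 CPM to 2.72, 2.33 and 2.26 CPM. Its groups were again separate between days in both genotypes and overlapped between genotypes within each day. The fall was 10.5-fold in WT (log2 -3.39 ± 0.36, edgeR adjusted p = 7.44e-06) and 12.2-fold in cells labelled knockout (log2 -3.61 ± 0.36, adjusted p = 5.36e-06). The first WT library of day 0 was the highest of its group for Chac1, Trib3, Psat1, Slc7a5 and Mthfd2. Without it the WT calls of these 5 genes held: over the fits that left out each of the 12 libraries in turn, the WT change ranged from -3.89 to -3.22 for Chac1 and from -3.63 to -2.96 for Trib3.

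Asns (chr6:7675169-7693254) encodes asparagine synthetase, which makes asparagine from aspartate and glutamine. It had the highest level per length of the 10 genes at day 0, 274 ± 7.92 CPM per kilobase of transcript in WT (SD, n = 3), ahead of Shmt2 at 211 ± 5.96. Its level was 537, 566 and 541 CPM in WT at day 0 and 161, 145 and 157 CPM at day 7. In libraries labelled knockout it was 485, 526 and 551 CPM at day 0 and 116, 115 and 108 CPM at day 7. The 4 groups fell into 3 levels: the day 0 groups overlapped, WT at day 7 lay below them, and the labelled knockout at day 7 lay below WT. Asns fell 3.55-fold in WT (log2 -1.83 ± 0.07, edgeR adjusted p = 1.76e-09) and 4.599-fold in cells labelled knockout (log2 -2.20 ± 0.07, adjusted p = 5.37e-10). Its spread within groups was small, an SD of 0.07 on the log2 scale, and 4.48% of 11824 genes compared had a smaller one.

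Of the serine enzymes, Psat1 fell in both genotypes. Psat1 (chr19:15904678-15947337) encodes phosphoserine aminotransferase, the second step of serine synthesis. It stood at 276, 244 and 213 CPM in WT at day 0 and at 78.5, 78.4 and 88.8 CPM at day 7. Its level in libraries labelled knockout was 301, 201 and 235 CPM and then 64.7, 115 and 63.0 CPM. The days did not overlap in either genotype, while the second day 7 library labelled knockout stood above its partners, and the SD of that group was 29.8 CPM. Psat1 fell 2.99-fold in WT (log2 -1.58 ± 0.23, edgeR adjusted p = 9.44e-05) and 3.03-fold in cells labelled knockout (log2 -1.60 ± 0.23, adjusted p = 8.84e-05).

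The size of the Psat1 fall in WT depends on which table is used. In the deposited table of reads split by parental genome, the sums of genome 1, genome 2 and unassigned counts were 0.43 to 0.91 of the Psat1 count in the whole-genome table. A fit to these sums, chosen after the data were seen, gave a WT fall of -0.83 ± 0.13 (edgeR adjusted p = 0.000124) and a fall of -1.68 ± 0.13 in cells labelled knockout (adjusted p = 4.15e-07). The transcript table divides Psat1 between its coding transcript Psat1-201 and the shorter retained-intron transcript Psat1-204. Psat1-204 took 52.4% ± 4.995 of the gene's counts in WT at day 0 and 18.2% ± 6.91 at day 7, and 39.5% ± 3.85 and then 22.0% ± 9.82 in libraries labelled knockout (SD, n = 3). The coding transcript alone went from 115 ± 10.2 to 66.4 ± 1.21 CPM in WT and from 147 ± 22.1 to 63.9 ± 30.3 CPM in libraries labelled knockout.

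Phgdh (chr3:98313170-98339990) encodes phosphoglycerate dehydrogenase, the entry step of serine synthesis. It stood at 149, 159 and 152 CPM in WT at day 0 and 194, 162 and 159 CPM at day 7. In libraries labelled knockout it was at 162, 169.5 and 153 CPM at day 0 and at 123, 117 and 127 CPM at day 7. All 3 WT libraries of day 7 were above all 3 of day 0, 2 of them by little, and all 3 day 7 libraries labelled knockout were below their day 0 group. The WT change did not pass (log2 0.16 ± 0.08, edgeR adjusted p = 0.107), and the fall in cells labelled knockout passed (log2 -0.40 ± 0.08, adjusted p = 0.00143). Phgdh has 20 annotated genes of similar sequence, mostly pseudogenes, and the counts of these cannot be separated cleanly from its own. Gm7901 shared 98.8% of 1597 aligned bases and Gm9347 97.4% of 1608. Summed over these copies the level was 36.7 ± 2.14 CPM in WT at day 0, 35.8 ± 1.56 in the labelled knockout at day 0, 37.4 ± 5.68 in WT at day 7 and 28.0 ± 1.44 in the labelled knockout at day 7. Phgdh and its copies summed stood at 190 ± 5.59, 197 ± 10.1, 209 ± 25.0 and 150.2 ± 5.22 CPM in the same order, and the labelled knockout at day 7 was the lowest group there too.

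The mitochondrial folate enzymes Shmt2 and Mthfd2 fell in both genotypes. Shmt2 (chr10:127517123-127522444) encodes the mitochondrial serine hydroxymethyltransferase, which splits serine into glycine and a one-carbon unit. It stood at 488, 466 and 491 CPM in WT at day 0 and at 274, 251 and 229 CPM at day 7. Its level in libraries labelled knockout was 416, 476 and 452 CPM and then 192, 183 and 189 CPM. The order was that of Asns, with overlapping day 0 groups and the labelled knockout lowest at day 7. Shmt2 fell 1.92-fold in WT (log2 -0.94 ± 0.08, edgeR adjusted p = 8.34e-07) and 2.38-fold in cells labelled knockout (log2 -1.25 ± 0.08, adjusted p = 8.62e-08). Its reads were divided between a pair of coding transcripts: Shmt2-201 held 79.5% ± 2.37 of the counts in WT at day 0 and 60.7% ± 5.77 in the labelled knockout at day 7 (SD, n = 3), with 71.3% ± 17.0 in WT at day 7.

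Mthfd2 (chr6:83305691-83325908) encodes the mitochondrial methylenetetrahydrofolate dehydrogenase that carries that one-carbon unit onward. It was at 140.4, 120 and 115 CPM in WT at day 0 and 85.4, 93.7 and 86.4 CPM at day 7. In libraries labelled knockout it was at 126, 114 and 116 CPM and then at 78.4, 68.5 and 78.1 CPM. The day groups were separate in both genotypes, and its change had the smallest point estimate among the members that fell in WT. Mthfd2 fell 1.41-fold in WT (log2 -0.50 ± 0.09, edgeR adjusted p = 0.000628) and 1.58-fold in cells labelled knockout (log2 -0.66 ± 0.09, adjusted p = 8.01e-05).

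The transporters moved in opposite directions. Slc7a5 (chr8:121881150-121907694) encodes LAT1, the transporter that pairs with the heavy chain Slc3a2 to import leucine and other large neutral amino acids. It stood at 424, 312 and 326 CPM in WT at day 0 and at 269, 237 and 222 CPM at day 7. Its level in libraries labelled knockout was 359, 353 and 308 CPM and then 163, 162 and 161 CPM. The 3 day 7 libraries labelled knockout differed among themselves by an SD of only 1.16 CPM and were all below WT. Slc7a5 fell 1.46-fold in WT (log2 -0.55 ± 0.12, edgeR adjusted p = 0.00157) and 2.096-fold in cells labelled knockout (log2 -1.07 ± 0.12, adjusted p = 1.13e-05).

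Slc7a11 (chr3:49892526-50443614) encodes xCT, the cystine importer that supplies cysteine for glutathione, and was the only one of the 10 genes that rose. It was at 10.7, 9.44 and 10.7 CPM in WT at day 0 and 42.3, 41.3 and 44.5 CPM at day 7. In libraries labelled knockout it was at 8.29, 9.84 and 11.1 CPM and then at 41.6, 42.2 and 40.6 CPM. All day 7 libraries were above all day 0 libraries, by 4.16-fold in WT (log2 2.06 ± 0.12, edgeR adjusted p = 6.06e-08) and by 4.25-fold in cells labelled knockout (log2 2.09 ± 0.12, adjusted p = 5.84e-08). Per length it was the lowest of the 10 genes, 1.11 ± 0.08 CPM per kilobase in WT at day 0 (SD, n = 3).

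Most of the Slc7a11 reads of the whole-genome table were not found again in the genome-split table. The split counts summed to 0.10 to 0.34 of the whole count, beside a median of 0.98 over 12592 genes with at least 100 counts on average, of which 0.651% had a pooled ratio under 0.34. The rise was smaller in these sums: log2 0.79 ± 0.26 in WT (edgeR adjusted p = 0.0173) and 1.064 ± 0.257 in cells labelled knockout (adjusted p = 0.00334). The 9223-base transcript of Slc7a11 holds, in antisense, a stretch similar to alpha tubulin mRNA, with 93.4% identity to Tuba1a over 483 bases. Tuba1a itself rose from 1058 ± 31.8 to 3776 ± 89.3 CPM in WT (log2 1.83 ± 0.05, edgeR adjusted p = 2.77e-10) and from 1058 ± 49.2 to 3589 ± 82.4 CPM in libraries labelled knockout (SD, n = 3). Tuba1b, with the same stretch at 92.5% over 585 bases, went from 2063 ± 50.8 to 1656 ± 3.84 CPM in WT. Whether strand was used in counting is not given in the sources used here, and the part of tubulin reads in the Slc7a11 rise was not tested.

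Atf4 (chr15:80255184-80257541), the regulator of the response, showed no change that exceeded the spread of its libraries. It stood at 169, 150.1 and 436 CPM in WT at day 0, at 426, 155 and 143 CPM in the labelled knockout at day 0, at 377, 146 and 317 CPM in WT at day 7 and at 131, 352 and 132 CPM in the labelled knockout at day 7. Each group held libraries at a low level, 131 to 169 CPM over the 7 such libraries, and at a high level, 317 to 436 CPM over the other 5, with none between. The change over 7 days was log2 0.15 ± 0.58 in WT (edgeR adjusted p = 0.831) and -0.24 ± 0.58 in cells labelled knockout (adjusted p = 0.744), and the WT interval reached from -1.13 to 1.44. The within-group SD of Atf4, 0.82 on the log2 scale, was larger than that of 97.2% of 11824 genes. Leaving out single libraries turned its sign, from -0.12 to 0.82 in WT and from -0.87 to 0.48 in cells labelled knockout.

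The genome-split table gave a different picture of Atf4. Reads of genome 1, one of the parental genomes, were even: 89.2, 78.3 and 77.0 CPM in WT and 83.1, 77.9 and 77.1 CPM in the labelled knockout at day 0, and 69.2, 66.5 and 66.0 CPM in WT and 60.0, 63.9 and 64.2 CPM in the labelled knockout at day 7. All 6 day 7 libraries lay below all 6 day 0 libraries on this genome 1 count. The share of all genes separated in this way was not counted, and the difference was not tested. In the whole-genome table, 35.6% of tested genes in WT and 34.9% in cells labelled knockout fell without overlap. Reads of genome 2 were nearly absent from 5 libraries, at 0.66 to 2.13 CPM, and stood at 77.2 to 123 CPM in the other 7. Each group had 1 or 2 libraries of the first kind. These were mostly not the libraries at the high whole-genome level: only the third WT library of day 0 and the first WT library of day 7 were both. The sum over the whole count ran from 0.75 to 2.07. In the fit to the sums the change of Atf4 was -0.13 ± 0.25 in WT (edgeR adjusted p = 0.677) and -0.53 ± 0.25 in cells labelled knockout (adjusted p = 0.089). How these counts were assigned was not tested, and the Atf4 level of the whole-genome table is given as uncertain.

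**Figure D3:**
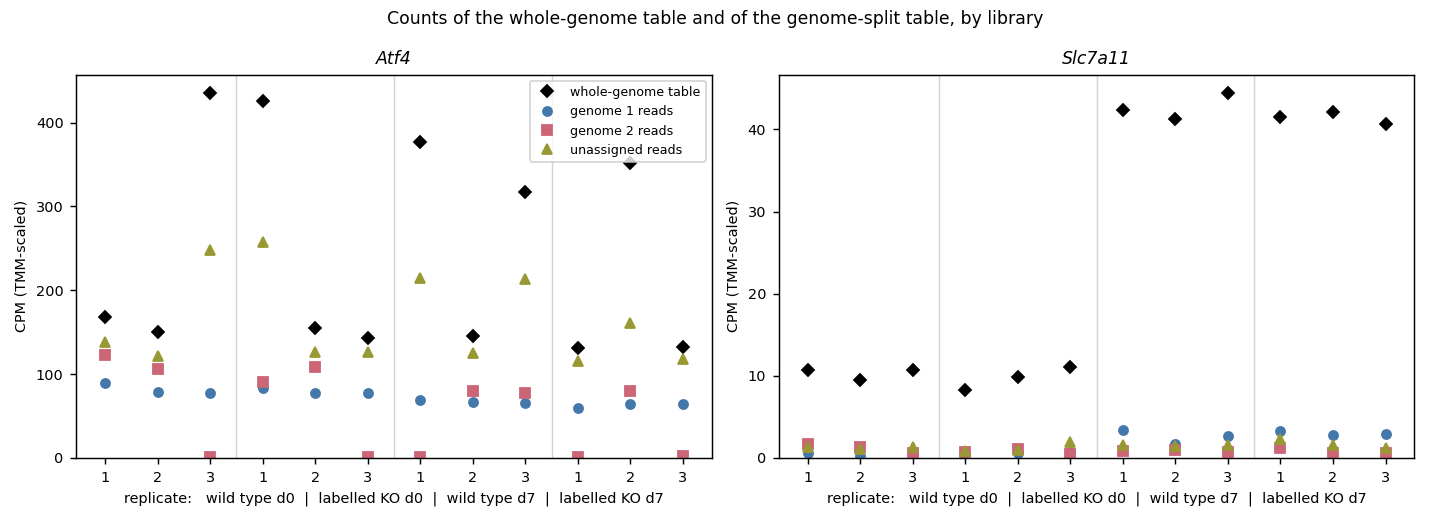
CPM (vertical axes, from 0) of Atf4 and Slc7a11 in each of the 12 libraries, from the whole-genome table and from the genome 1, genome 2 and unassigned reads of the genome-split table. For Atf4 the whole-genome values fall into 2 levels and genome 2 is near 0 in 5 libraries while genome 1 stays between 60.0 and 89.2 CPM. The libraries with genome 2 near 0 are mostly not those at the high whole-genome level. For Slc7a11 the split counts are a small part of the whole-genome count.

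At day 0 the 10 genes did not separate the genotypes. None passed in the libraries labelled knockout against WT by edgeR, where 0.13% of all tested genes did, none had an unadjusted p under 0.05, where 11.9% of all tested genes did, and none passed by DESeq2, where 1.95% did. The log2 differences ran from -0.14 for Trib3 to 0.07 for Phgdh, with a median of -0.07. For the tightest of them, Asns, the 95% interval of the difference was -0.22 to 0.07, and for Atf4 it was -1.34 to 1.23. All 10 pairs of groups overlapped, as against 15.7% of tested genes whose groups did not.

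At day 7 all 10 genes had a lower mean in the labelled knockout, with a median log2 difference of -0.39 beside -0.02 over all tested genes, and none passed by edgeR. The direction was not stable for 3 of them: Slc7a11 stood at 0.14 in the genome-split sums, Chac1 reached 0.11 without the first WT library of day 7, and Psat1 reached 0.13 without the third day 7 library labelled knockout. At this day 0.026% of tested genes passed. The unadjusted p was under 0.05 for 5 of the 10, Asns, Phgdh, Shmt2, Mthfd2 and Slc7a5, beside 8.18% of all tested genes. In the same 5 all 3 labelled-knockout libraries lay below all 3 WT libraries, which was so for 12.8% of tested genes. DESeq2 passed 4 of them, Asns, Phgdh, Shmt2 and Slc7a5, beside 0.656% of the genes it tested. These genes share the same 6 libraries, so their agreement in direction is not that of independent observations.

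The values behind these differences were as follows. Slc7a5 differed most, at 162 ± 1.16 against 242 ± 24.04 CPM (SD, n = 3 and 3; log2 -0.58 ± 0.12, edgeR adjusted p = 0.235, DESeq2 adjusted p = 0.0063). Phgdh differed by log2 -0.49 ± 0.08 (edgeR adjusted p = 0.131, DESeq2 adjusted p = 0.00109). Asns differed by log2 -0.45 ± 0.07, with 113 ± 4.195 against 155 ± 8.12 CPM (edgeR adjusted p = 0.0622, DESeq2 adjusted p = 0.000238). In the whole-genome table the edgeR value of Asns thus sat just above the threshold. The edgeR adjusted p ran from 0.0708 to 0.196 over the fits that left out a library. In the genome-split sums the Asns difference was log2 -0.43 ± 0.18 (edgeR adjusted p = 0.601). Shmt2 differed by log2 -0.42 ± 0.08 (edgeR adjusted p = 0.159, DESeq2 adjusted p = 0.00211), and Mthfd2 by -0.24 ± 0.09 (edgeR adjusted p = 0.567). Chac1 and Trib3, which responded most to the days, differed between genotypes by -0.15 ± 0.33 and -0.36 ± 0.34, and Slc7a11 by -0.04 ± 0.11, each with overlapping groups. The Psat1 difference was -0.01 ± 0.22 in the whole-genome table and -0.51 ± 0.13 in the genome-split sums (edgeR adjusted p = 0.347).

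**Figure D4:**
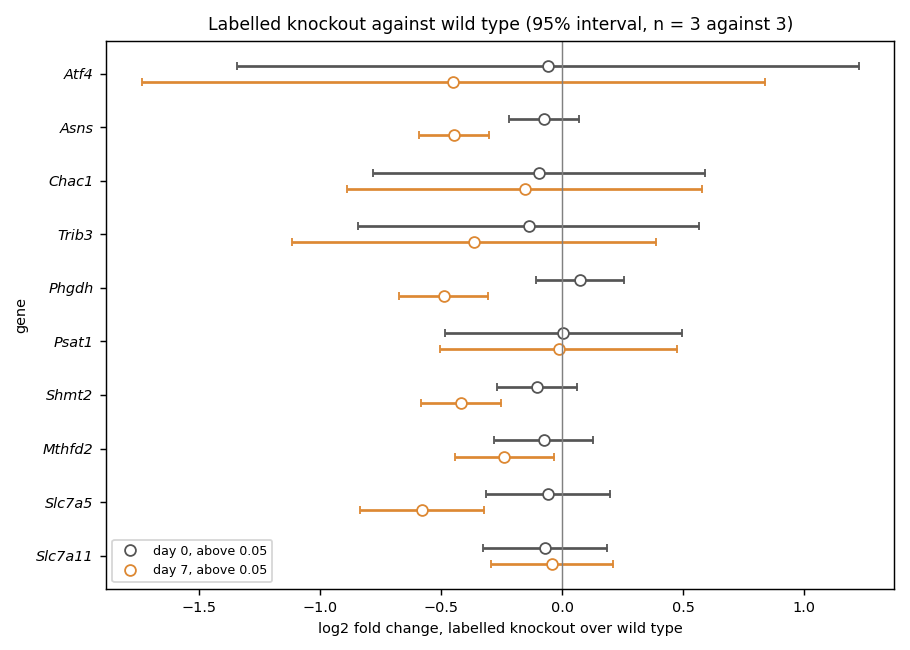
Log2 difference between libraries labelled knockout and WT (horizontal axis) at day 0 and at day 7, with 95% intervals of the edgeR fit; open points have an adjusted p above 0.05, which is all of them. At day 7 the points of Asns, Phgdh, Shmt2, Mthfd2 and Slc7a5 lie left of 0 with intervals that do not cross it.

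Levels of cell type markers also differed between the genotypes at day 7, though none of these markers passed by edgeR, beside 0.026% of all tested genes. DESeq2 passed 1 ES cell marker, 1 marker of differentiated progeny and 1 fibroblast marker, beside 0.656% of the genes it tested. The summed level of 8 fibroblast markers, collagens among them, was 1384 to 1579 CPM in WT and 1104 to 1134 CPM in the labelled knockout, after 25.7 to 36.4 CPM over the day 0 libraries. Most of the day 7 sum was Col1a1, at 1070 to 1293 CPM in WT and 872 to 908 CPM in the labelled knockout. Thy1 fell over the days instead, from 17.6 to 26.8 CPM at day 0 to 3.49 to 5.05 CPM at day 7. The genotypes overlapped at day 7 for Col3a1, Thy1, Dcn and Lum. All 8 fibroblast markers had a lower mean in the labelled knockout, 4 of them without overlap, and none was at 0 at day 7. Over all tested genes, 12.8% were lower without overlap. The 8 markers of differentiated progeny summed to 4167 to 4765 CPM in WT and 3502 to 3636 CPM in the labelled knockout. Most of this sum was Hand1 (1828 to 2066 CPM in WT, 1484 to 1538 CPM in the labelled knockout) and Krt18 (1868 to 2222 and 1541 to 1603 CPM). Of the 8 progeny markers, 3 were lower without overlap, beside the same 12.8% of tested genes, and T and Pdgfra were higher without overlap. The 5 neural markers summed to 68.6 to 82.8 and 85.0 to 88.8 CPM. The ES cell markers summed to 327 to 358 and 350 to 359 CPM. At day 0, 1 ES cell marker was called higher in the labelled knockout by edgeR, beside 0.13% of all tested genes. Of the 8 ES cell markers, 5 had a higher and 3 a lower estimate there. In the interaction 1 was called lower, beside 0.026% called in either direction. Esrrb, an ES cell marker, stood at 38.5 to 54.5 CPM in WT at day 0 and at 173 to 315 CPM in the labelled knockout. The part of cell composition in the day 7 differences was not tested.

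Whether the change over 7 days itself differed between the genotypes was tested by the interaction of genotype and day. None of the 10 genes passed by edgeR, beside 0.026% of all tested genes, and 4 had an unadjusted p under 0.05, Asns, Phgdh, Shmt2 and Slc7a5, beside 6.86% of all genes. Of the 10 interaction terms 9 were below 0, with a median of -0.27 against -0.05 over all genes. In the whole-genome table Phgdh had the largest, log2 -0.56 ± 0.12 (edgeR adjusted p = 0.281), and was the only one that passed by DESeq2 (-0.55 ± 0.14, adjusted p = 0.0292). Slc7a5 followed at -0.52 ± 0.16 (edgeR adjusted p = 0.539), then Asns at -0.38 ± 0.09 (adjusted p = 0.356) and Shmt2 at -0.31 ± 0.11 (adjusted p = 0.573). This order depends on the counts used: the Psat1 term was -0.02 ± 0.31 in the whole-genome table and -0.85 ± 0.18 in the genome-split sums (edgeR adjusted p = 0.246), and that of Atf4 was -0.39 ± 0.83 and, with the treatment label as a covariate, -0.63 ± 0.76.

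The genes around this pathway were read from 7 further lists. Of 8 genes for eIF2 kinases, phosphatase parts and eIF2 alpha, 2 rose and 2 fell in each genotype, at an edgeR adjusted p of at most 0.05. Of all tested genes, 32.9% rose and 32.1% fell in WT, and 31.1% rose and 32.3% fell in cells labelled knockout. Eif2ak4, the kinase Gcn2 that senses uncharged tRNA, rose by log2 0.73 ± 0.14 in WT (edgeR adjusted p = 0.000581) and its partner Gcn1 by 0.55 ± 0.09. Eif2s1, which encodes eIF2 alpha, fell by 0.71 on the log2 scale in WT, and Eif2ak1, the heme-regulated kinase, by 0.34.

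Among 9 transcription factors that act with or beside Atf4, 3 rose and 1 fell in each genotype. The shares over all tested genes were 32.9% and 32.1% in WT, and 31.1% and 32.3% in cells labelled knockout. Nupr1, a small stress-induced chromatin protein, went from 36.2 ± 12.1 to 1.65 ± 0.35 CPM in WT (log2 -4.45 ± 0.35, edgeR adjusted p = 7.48e-07) and from 31.5 ± 7.63 to 2.17 ± 0.83 CPM in libraries labelled knockout. Atf3, an early stress-response factor, rose by log2 2.26 ± 0.17 in WT and by 2.38 ± 0.17 in cells labelled knockout. Ddit3, which encodes CHOP, stood at 7.92 ± 2.87 CPM in WT at day 0 and at 7.87 ± 1.33 CPM at day 7, and did not pass. Nfe2l2, the NRF2 factor of the oxidative stress response, rose by log2 0.83 ± 0.13 in WT and 0.54 ± 0.13 in cells labelled knockout.

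Of 18 other serine, glycine and folate genes, 9 fell and 2 rose in WT, and 11 fell and 2 rose in cells labelled knockout. Over all tested genes, 32.1% fell and 32.9% rose in WT, and 32.3% fell and 31.1% rose in cells labelled knockout. Tdh, the threonine dehydrogenase on which mouse ES cells draw for glycine, went from 628 ± 10.3 to 5.44 ± 1.58 CPM in WT (log2 -6.83 ± 0.19, edgeR adjusted p = 2.35e-10) and from 664 ± 11.3 to 4.08 ± 0.40 CPM in libraries labelled knockout. Of the glycine cleavage system, Amt fell by 1.77 on the log2 scale in WT and Gldc by 1.79 in cells labelled knockout. Amt also went from 70.7 ± 3.98 to 23.1 ± 1.17 CPM in libraries labelled knockout, and Gldc from 104 ± 7.74 to 42.2 ± 3.27 CPM in WT. Dld, another part of that system, rose instead, by log2 0.49 ± 0.13 in WT and 0.65 ± 0.13 in cells labelled knockout. Shmt1, the cytosolic counterpart of Shmt2, fell by 1.51 and 1.63. Mthfd2l, a paralogue of Mthfd2, rose from 0.27 ± 0.20 to 7.56 ± 1.29 CPM in WT (log2 4.87 ± 0.63, edgeR adjusted p = 3.95e-05) and from 0.13 ± 0.12 to 9.87 ± 0.31 CPM in libraries labelled knockout, where its day 0 level rests on 14 reads over 3 libraries.

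Of 10 other amino acid transporters, 4 rose and 4 fell in WT, and 5 rose and 5 fell in cells labelled knockout. The shares over all tested genes were 32.9% and 32.1% in WT, and 31.1% and 32.3% in cells labelled knockout. Slc7a3, a cationic amino acid transporter, went from 236 ± 48.3 to 16.9 ± 4.17 CPM in WT (log2 -3.81 ± 0.20, edgeR adjusted p = 2.36e-08). Slc7a6, a light chain of the same family as Slc7a5, rose from 19.9 ± 2.71 to 87.8 ± 8.53 CPM in WT (log2 2.15 ± 0.18, edgeR adjusted p = 1.19e-06). The heavy chain Slc3a2, shared by Slc7a5, Slc7a6 and Slc7a11 and named here outside the rule for named genes, stood at 465 ± 21.5 CPM in WT at day 0 and 262 ± 24.1 CPM at day 7, and at 389 ± 45.0 and 212 ± 2.26 CPM in libraries labelled knockout. Slc43a1 and Slc1a4 rose in both genotypes, by log2 1.46 ± 0.15 and 1.68 ± 0.40 in WT.

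Of 9 genes from proline and aspartate synthesis to glutathione, 8 fell and 1 rose in WT, and 7 fell and 1 rose in cells labelled knockout. Over all tested genes, 32.1% fell and 32.9% rose in WT, and 32.3% fell and 31.1% rose in cells labelled knockout. Cbs, which makes cystathionine on the way from methionine to cysteine, went from 33.2 ± 1.99 to 2.52 ± 0.35 CPM in WT (log2 -3.71 ± 0.13, edgeR adjusted p = 1.37e-09). Pycr1, the last enzyme of proline synthesis, fell by 1.78 on the log2 scale in WT and by 2.58 in cells labelled knockout. Gclc, the catalytic subunit that starts glutathione synthesis, rose by log2 1.36 ± 0.11 and 1.17 ± 0.11.

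Of the 7 tested genes among 8 other Atf4 targets, 3 rose and 4 fell in WT, and 2 rose and 4 fell in cells labelled knockout. Gdf15, a secreted stress cytokine, went from 11.97 ± 3.47 to 0.06 ± 0.11 CPM in WT (log2 -8.11 ± 0.88, edgeR adjusted p = 8.68e-06), where 5 reads were counted over 3 libraries at day 7. Eif4ebp1, a repressor of cap-dependent translation, went from 1585 ± 34.2 to 628 ± 55.2 CPM in WT (log2 -1.34 ± 0.09). Vldlr, a lipoprotein receptor, rose from 1.303 ± 0.349 to 39.7 ± 3.42 CPM in WT (log2 4.91 ± 0.19, edgeR adjusted p = 2.51e-09). Ddit4, an inhibitor of mTORC1, rose by log2 2.05 ± 0.17 and 1.63 ± 0.17. Of 8 chaperones and genes of the other arms of the unfolded protein response, 5 rose and 1 fell in WT, and 4 rose and 0 fell in cells labelled knockout. For both lists the shares over all tested genes were 32.9% higher and 32.1% lower in WT, and 31.1% and 32.3% in cells labelled knockout. Hspa5, the chaperone BiP, rose by log2 0.68 ± 0.12 in WT and Xbp1 by 0.82 ± 0.22.

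No gene of these 7 lists passed by edgeR between the genotypes at either day or in the interaction. At day 7 the unadjusted p was under 0.05 for 4 of 18 serine, glycine and folate genes, 3 of 10 transporters, 2 of 9 genes of the proline to glutathione list, 1 of 9 transcription factors and 1 of 7 other targets, and DESeq2 passed none of them. These counts stand beside 8.18% of all tested genes. At day 0 it was under 0.05 for 5 of 10 transporters, 2 of 7 other targets and 1 gene each of the eIF2, transcription factor, serine, glycine and folate, and chaperone lists, beside 11.9% of all tested genes, and DESeq2 passed 2 transporters and 1 other target.

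**Figure D5:**
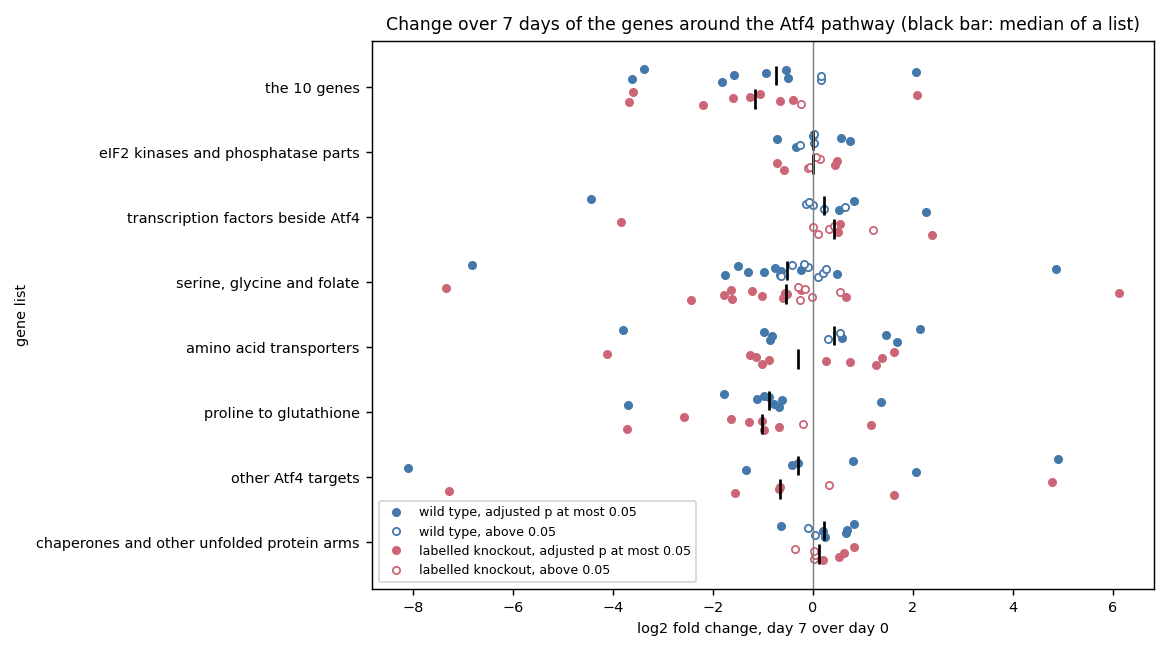
Log2 fold change from day 0 to day 7 (horizontal axis) of each tested gene of the 10 and of the 7 further lists (rows), in WT and in libraries labelled knockout; filled points have an edgeR adjusted p of at most 0.05 and the black bar is the median of a list. The medians of the 10 genes, -0.74 and -1.16, and of the proline to glutathione list, -0.89 and -1.02, lie left of 0, and those of the chaperone list, 0.22 and 0.12, right of it.

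Because the cells are a hybrid, reads that overlap a strain difference could be assigned to a parental genome, called genome 1 and genome 2 in the files, which do not say which strain is which. Some 29.7% to 32.0% of the split reads were assigned in a library. Most members were counted almost entirely on one genome: pooled over the 12 libraries, genome 2 held 100% of the assigned reads of Chac1, 88.8% of Asns, 4.69% of Trib3, 0.176% of Phgdh, 0.0293% of Shmt2, 0.0209% of Psat1 and 0% of Mthfd2. This was common in the table. Of 9343 genes with at least 20 assigned reads in every library, 44.5% had under 5% of their reads on genome 2 and 4.89% had over 95%. The neighbours within 2 Mb resembled some members and not others. The median genome 2 share of 49 neighbours of Chac1 was 97.6%, of 8 neighbours of Asns 77.4% and of 60 neighbours of Shmt2 0.018%, near the members' own shares. It was 0.472% for 60 neighbours of Atf4 and 0.375% for 46 neighbours of Slc7a5, which themselves stood at 42.8% and 23.0%. No library held an Atf4 share near this pooled value. The Atf4 share was 0.85% to 3.21% in the libraries with genome 2 nearly absent and 52.1% to 58.3% in the rest.

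Asns and Slc7a5 showed no called change in genome share while their level fell. The genome 2 share of Asns was 88.5% ± 0.23 in WT at day 0 and 87.9% ± 0.94 at day 7, and 89.4% ± 0.95 and then 89.2% ± 1.31 in libraries labelled knockout (SD, n = 3). That of Slc7a5 was 22.1% ± 2.48 and 24.8% ± 3.88 in WT and 20.9% ± 1.65 and 24% ± 2.17 in libraries labelled knockout. Neither passed an edgeR test of allelic balance in any of the 4 comparisons. Of 9344 genes tested, 3.67% passed over the days in WT, 2.99% over the days in cells labelled knockout, 0.0321% between genotypes at day 7 and 0% at day 0.

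Slc7a11 was the 1 member with a called change in share, in WT. Chac1 had 0 assigned reads on genome 1 and Mthfd2 0 on genome 2, so no change could be called for them. Psat1, Shmt2 and Phgdh had 6, 13 and 60 reads on genome 2 over the 12 libraries. For these and for Atf4 (SE 3.14 over the days in WT) the lack of a call says little. In WT genome 2 held 75.0%, 84.6% and 57.1% of the assigned Slc7a11 reads at day 0 and 20.8%, 36.8% and 21.6% at day 7. The libraries labelled knockout had 62.9%, 64.4% and 36.0% and then 26.6%, 17.0% and 15.9%. The groups of each genotype were separate between days, on 28 to 185 assigned reads per library. The log2 ratio of genome 2 to genome 1 changed by -3.01 ± 0.67 in WT (edgeR adjusted p = 0.0349) and by -2.28 ± 0.66 in cells labelled knockout (adjusted p = 0.14). The WT call was lost with a minimum of 50 assigned reads and in 6 of the 12 fits that left out a library: the first and the second WT library of day 0, the first and the third of day 7, or the second or the third day 7 library labelled knockout. In CPM, genome 1 reads of Slc7a11 went from 0.40 ± 0.16 to 2.59 ± 0.81 in WT while genome 2 reads were at 1.18 ± 0.57 and 0.87 ± 0.14.

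Likeness to Asns was described over the 12 libraries after the group means were removed, so that it reflects only the spread between replicates. The 5 genes outside the 10 with the highest Pearson correlation were Rpl36a-ps2 (0.974), Gm19705 (0.968), Snhg12 (0.955), Snrpa1 (0.954) and Gm29257 (0.948), all 12 libraries sharing their depth and normalization with Asns. They are given as a description, with no test.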

How the data were processed

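Poly(A) RNA was sequenced from 12 libraries, 3 for each genotype and day. The deposited gene, transcript and genome-split tables hold expected counts, whole-number estimates that the authors made with StringTie 1.3.3 after alignment with HISAT2 2.1.0 to mm10, per the submitters' processing notes, which also list FastQC 0.11.3, Trimmomatic 0.36, SAMtools 0.1.19 and DESeq2 1.32.0. The sources used here name neither their settings nor the annotation release or the use of strand. Of 55487 identifiers, 99.38% matched GENCODE vM21 (GRCm38), from which positions and transcript lengths were taken.

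Genes that passed filterByExpr (19235) were fitted in R 4.3.3 with edgeR 4.0.16 (TMM scaling, quasi-likelihood test, 1 coefficient per group over all 12 libraries, Benjamini-Hochberg adjustment over all tested genes, threshold 0.05). The fitting script was first checked on simulated counts. Levels (CPM) are counts per 1e6 of the TMM-scaled library total. A value after ± is an SE for a log2 change and an SD over 3 libraries for a level or share. Allelic balance was tested with edgeR on genome 1 and genome 2 counts, with each library as a block and at least 20 assigned reads per library. Similar sequences were sought with BLASTN 2.17.0.

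The 10 genes and the further lists were chosen with earlier results of these data known. All 10 genes are named. Of each further list, up to 3 genes with the largest rise and up to 3 with the largest fall among those called, at a mean log2 CPM of at least 2, may be named. Ddit3, Slc3a2, the tubulin genes and the Phgdh copies were named after their values were seen. Alternatives were DESeq2 1.42.0, RLE size factors, no filter, only the 6 libraries compared, the replicate number as a block, the treatment label (LIF or none, which does not follow the day) as a covariate, each library left out, and, added after the data were seen, the sums of genome-split counts. The labels' replicate numbers were not taken to pair the samples: the correlation of same-numbered libraries' deviations ran from -0.034 to 0.128. No 2 libraries of a group were alike within counting error (chi-square over genes of 22.4 to 54.9 per degree of freedom). The genome-split transcript table was not used.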

Additional observations from a re-analysis of the deposited data

Results flagged for a closer look

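Phgdh stood out because the values of the genotypes separated in opposite directions over the 7 days: all 3 WT libraries of day 7 were above those of day 0 and all 3 libraries labelled knockout were below theirs. Of all tested genes, 36.4% rose without overlap in WT and 34.9% fell without overlap in libraries labelled knockout. The share that did both was not counted. The WT change was not called (log2 0.16, edgeR adjusted p = 0.107), and its nearest libraries of the 2 days were almost level, both at 159 CPM. The fall in cells labelled knockout was called (log2 -0.40, edgeR adjusted p = 0.00143). The difference between the changes was log2 -0.56 ± 0.12 SE, with an adjusted p of 0.281 by edgeR and 0.0292 by DESeq2. It lay between -0.58 and -0.55 over 6 alternatives, and between -0.62 and -0.47 over the 12 fits that left out a library.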

How the results depend on the processing

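The counts of the 10 genes that passed were the same under RLE size factors, no filter, the treatment covariate and the genome-split sums in all 5 expression comparisons (0, 0, 8, 9 and 0), under the 6-library fits in the 4 comparisons where these can be made, and in each of the 12 fits that left out a library. DESeq2 passed 4 of the 10 between genotypes at day 7 and 1 in the interaction, where edgeR passed none. With the replicate number as a block the counts of the 10 genes were also 0, 0, 8, 9 and 0, so no call changed, while over all genes 6, 2 and 0 passed at day 0, at day 7 and in the interaction, against 25, 5 and 5. Leaving out a library moved these 3 counts within 6 to 55, 5 to 13 and 0 to 15. DESeq2 gave 327, 131 and 130 of the genes it tested. At day 0 the 6-library fit gave 0, the treatment covariate 10 and the split sums 16, at day 7 the 6-library fit gave 9, and in the interaction the unfiltered fit and the split sums gave 8 each. For allelic balance in WT, 1 member passed, and 0 with a minimum of 50 assigned reads; leaving out a library gave 0 to 1. The cause was not tested. Among the called changes over 7 days, split sums moved those of Slc7a11 and, in WT, of Psat1 by over 1.5 times, as given above. Values that were not called moved too. The Atf4 change went from log2 0.15 to -0.13 in WT and from -0.24 to -0.53 in cells labelled knockout. For Psat1 the genotype difference at day 7 went from -0.01 to -0.51 and the interaction from -0.02 to -0.85. Depth limits the genome shares of Chac1, Trib3 and Slc7a11, with as few as 20, 23 and 28 assigned reads in a library.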
